A study of Mus musculus with 9 samples.

Results

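The MYC and MAX network was followed through 9 genes, Myc, Mycn, Mycl, Max, Mxd1, Mxd3, Mxd4, Mxi1 and Mnt, chosen by gene name from 55274 gene identifiers. All 9 were listed in each library, and 8 of them reached 1 FPKM in at least 3 of the 9 libraries and were tested. Mycl did not. FPKM scale the fragments of a gene to transcript length and library size, so levels of different genes can be compared per length.

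RNA-seq was done on 9 libraries of transduced mouse bone marrow cells, 3 with NRASG12D, 3 with NUP98-NSD1 and 3 with NUP98-NSD1+NRASG12D. NRASG12D is a permanently active mutant of the signaling GTPase NRAS, and NUP98-NSD1 is a leukemia fusion between the nucleoporin NUP98 and the H3K36 methyltransferase NSD1. All cells came from C57BL/6J mice that received 150 mg/kg 5-fluorouracil 4 days before harvest. The cells were prestimulated for 48 h and grown with IL-6 at 10 ng/mL, IL-3 at 6 ng/mL and SCF at 20 ng/mL. Both genes were carried by MSCV retroviral vectors, NUP98-NSD1 with GFP and NRASG12D with BFP, and cells were sorted on these markers and expanded before RNA isolation. No library of untransduced or empty-vector cells was analysed here. The study describes NRASG12D cultures as mostly mast cells whose numbers declined, so that cell type and transgene cannot be told apart against this group. Cell type markers also differed between the combined and the NUP98-NSD1 cultures, as given below, so the same limit holds for that comparison. The labels do not say whether replicates were separate transductions, and p-values therefore measure only the spread between these libraries.

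MYC, MYCN and MYCL are basic helix-loop-helix leucine zipper proteins that bind DNA as dimers with MAX, mainly at the E-box CACGTG, and activate genes of ribosome production, metabolism and cell division. The MXD proteins, MXI1 and MNT compete for MAX and for the same sites, and recruit SIN3 corepressors with histone deacetylases. In myeloid cells MYC is known for its high level in dividing progenitors, and MXD1 for its rise during terminal differentiation.

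Because MYC and MXD dimers bind the E-box, it was searched in the promoters of the members themselves, using RefSeq promoter sequences on GRCm38.p6 that span 250 bases before to 50 bases after a start site. The table held 10 promoters for 8 members, all but Myc. CACGTG, which reads the same on both strands, occurred in promoters of 3 of the 8 members, Max, Mnt and Mxd4. It occurred in promoters of 8.09% of all 27025 genes, and in 7.15% of all 32851 promoters. Member promoters had 56% to 76.7% G and C, beside a median of 52.7% for all promoters. The 3 windows are shown because they place the binding site of the network in its own genes, with the E-box in capitals and the sequence on the strand of the gene.
Max, chr12:76962235-76962262, minus strand: gtgagcccggtCACGTGttagggggccg
Mnt, chr11:74830790-74830817, plus strand: cccacccaagcCACGTGtgcgcgcgcgg
Mxd4, chr5:34187913-34187940, minus strand: ggctgggccacCACGTGctgttgctaag
With the start base of the promoter set counted as 0, the E-box lay from -3 to 2 in Max, across that start. It lay from -123 to -118 in Mnt and from -219 to -214 in Mxd4. These starts can differ from the gene coordinates given below, by which Max begins at 76962201 and its whole window lies upstream. The promoter of Mycn, the member with the widest spread of levels on the log scale among the combined cultures, held no E-box in this window. It held the letters TTTGGCGC, a form of the E2F motif, at a pair of places on the strand of the gene. This motif was chosen after the promoter had been read, and TTTGGCGC or its reverse complement occurred in 0.514% of all promoters. The windows show the motif in capitals.
Mycn, chr12:12942001-12942030, minus strand: agcaaatggctTTTGGCGCgaaaggctttg
Mycn, chr12:12941986-12942015, minus strand: gcgcgaaaggcTTTGGCGCctcccctgatt
The motif ran from -183 to -176 in the first window and from -168 to -161 in the second. These matches describe letters only, and binding was not measured.

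The depth of the libraries was estimated at 23400000 to 36900000 fragments. Nras, Nup98 and Nsd1 served as a check of the labels. NRASG12D libraries held 348.1 to 479.2 FPKM of Nras, NUP98-NSD1 libraries 47.68 to 51.23, and NUP98-NSD1+NRASG12D replicates 1, 2 and 3 held 244.7, 262.2 and 701.1. Nup98 had 9.121 to 11.07, 18.24 to 19.03 and 11.88 to 20.17 FPKM in the same order of groups. Nsd1 had 11.68 to 14.66, 10.77 to 16.23 and 9.981 to 16.19 FPKM and did not separate the groups. Marker genes separated the cultures. For 10 mast cell markers, NRASG12D libraries had a summed FPKM of 30017 to 32656, NUP98-NSD1 libraries 26832 to 31856 and the combined libraries 739 to 4335. Cpa3, a mast cell carboxypeptidase, was listed at 0 in all 3 NRASG12D libraries, and without it the sums were 30017 to 32656, 13672 to 17477 and 459.4 to 2514. The sum of 8 neutrophil precursor markers was 27.13 to 35.06, 1884 to 6399 and 8177 to 20582 FPKM in the same order, and that of 7 monocyte and macrophage markers 43.73 to 124.8, 1233 to 1702 and 3697 to 10569. B cell markers summed to at most 0.5172 and T cell markers to at most 5.338 FPKM. In bulk RNA, fewer cells of a type and less RNA per cell cannot be told apart.

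**Figure D1:**
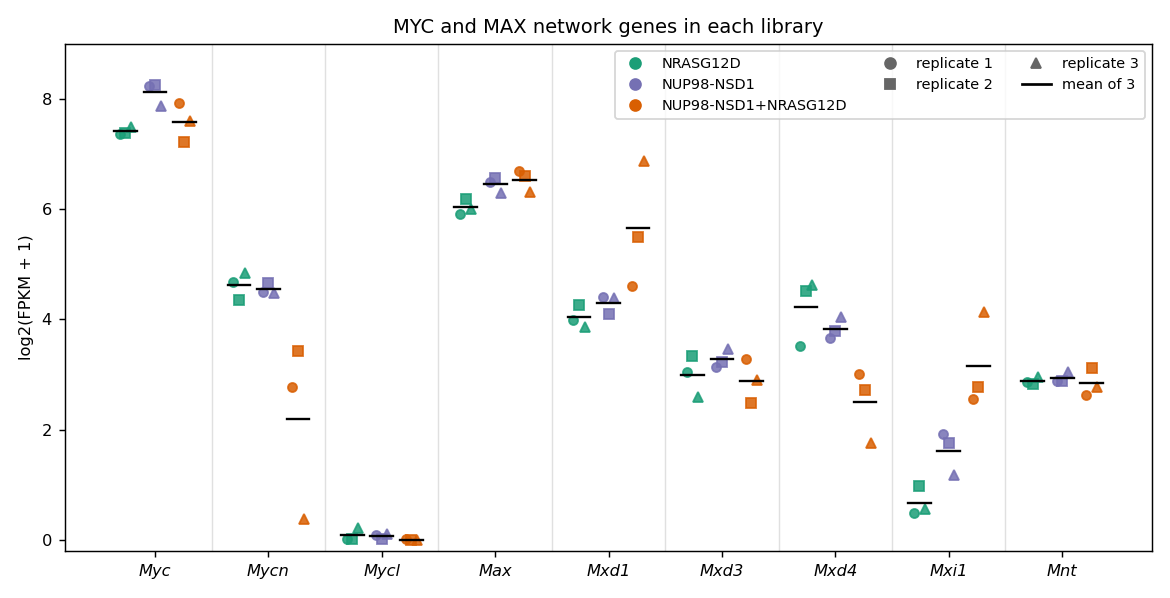
Levels of the 9 network genes as log2(FPKM + 1) in each library, with color for the group, symbol for the replicate and a bar for the mean of 3. Myc and Max were the most abundant members in most libraries, Mycl was near 0 throughout, and NUP98-NSD1+NRASG12D replicate 3 had the lowest Mycn and Mxd4 and the highest Mxd1 and Mxi1.

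Myc was the dominant MYC gene in every library and was higher in NUP98-NSD1 than in NRASG12D cells. Myc (ENSMUSG00000022346.15, GRCm38 chromosome 15, 61985391 to 61990374, plus strand) had 163.2, 166.3 and 179.1 FPKM in NRASG12D replicates 1, 2 and 3. It had 302.1, 305.2 and 234.9 FPKM in NUP98-NSD1, and 243.3, 149.0 and 192.7 FPKM in NUP98-NSD1+NRASG12D. All NUP98-NSD1 libraries lay above all NRASG12D libraries, whereas the combined cultures overlapped with both groups. The log2 fold change between NUP98-NSD1 and NRASG12D was 0.72 ± 0.12 (SE, n = 3 per group; limma, adjusted p = 0.00332). This is 0.44 above the median shift of all tested genes in that comparison. The exact permutation test gave its smallest possible p of 0.1. The call was kept in 7 of 7 alternatives and without any of the 6 libraries, with log2 fold changes of 0.38 to 0.83 over the alternatives. NUP98-NSD1+NRASG12D cells differed from NRASG12D by 0.17 ± 0.21 (adjusted p = 0.523) and from NUP98-NSD1 by -0.54 ± 0.23 (adjusted p = 0.210, 95% interval -1.09 to 0.01). The first of these values turned to -0.06 and -0.18 when libraries were rescaled by median ratios or quantiles.

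Mycn, a MYC gene of stem and embryonic cells, overlapped between the single-gene cultures and was lower in the cultures with both genes. Mycn (ENSMUSG00000037169.15, chromosome 12, 12936093 to 12941914, minus strand) had 24.6, 19.4 and 27.6 FPKM in NRASG12D and 21.7, 24.2 and 21.5 FPKM in NUP98-NSD1. In NUP98-NSD1+NRASG12D it had 5.84, 9.79 and 0.299 FPKM, below every other library. Mycn fell in NUP98-NSD1+NRASG12D compared with NRASG12D, with a log2 fold change of -2.43 ± 0.72 (limma, adjusted p = 0.0363, interval -4.14 to -0.72). Against NUP98-NSD1 the value was -2.35 ± 0.72 with adjusted p = 0.0961, although the groups did not overlap. NUP98-NSD1 and NRASG12D differed by -0.07 ± 0.14 (adjusted p = 0.671). The call against NRASG12D held in 5 of 7 alternatives and in 2 of 6 fits without a library. Without NUP98-NSD1+NRASG12D replicate 1 its adjusted p was 0.0525, and without NRASG12D replicates 1, 2 or 3 it was 0.0959, 0.0791 and 0.110. Without NUP98-NSD1+NRASG12D replicate 3, the library with 0.299 FPKM, the difference from NRASG12D shrank to -1.52 (adjusted p = 0.00988) and the one from NUP98-NSD1 was -1.45 with adjusted p = 0.0418.

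Within a library, Mycn supplied 13.1%, 10.4% and 13.3% of the summed FPKM of the MYC genes in NRASG12D, 6.69%, 7.35% and 8.37% in NUP98-NSD1, and 2.34%, 6.17% and 0.155% in NUP98-NSD1+NRASG12D. The 3 groups did not overlap in this share. Mycl (ENSMUSG00000028654.13, chromosome 4, 122995652 to 123002485, plus strand) ranged from 0 to 0.164 FPKM. It was below the level of 3 fragments, which is 0.0232 to 0.0366 FPKM for this gene depending on the library, in 6 of 9 libraries, and a difference was not detectable at this depth.

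Max, the shared partner of all MYC and MXD proteins, was modestly higher in cells with NUP98-NSD1. Max (ENSMUSG00000059436.13, chromosome 12, 76937269 to 76962201, minus strand) had 59.0, 71.7 and 63.5 FPKM in NRASG12D, 89.6, 93.4 and 77.2 in NUP98-NSD1, and 102.5, 95.7 and 78.6 in NUP98-NSD1+NRASG12D. Both groups with NUP98-NSD1 lay above all NRASG12D libraries and overlapped with each other. The log2 fold change was 0.42 ± 0.11 for NUP98-NSD1 (limma, adjusted p = 0.0165) and 0.50 ± 0.16 for NUP98-NSD1+NRASG12D (adjusted p = 0.0476). These calls were lost under median-ratio scaling, where the values were 0.08 (adjusted p = 0.414) and 0.27 (adjusted p = 0.163), under quantile normalization (0.302 and 0.429) and without a filter on low values (0.0705 and 0.0967). The first was also lost with all 9 libraries in 1 fit (0.0636), and the second with array weights (0.0754) and with the replicate block (0.102), which left them called in 3 and 2 of 7 alternatives. Of the fits without a library, the first was lost without NRASG12D replicates 1 or 3 (adjusted p = 0.0587 and 0.0517) or NUP98-NSD1 replicates 1 or 2 (0.0589 and 0.0661). The second was lost without NRASG12D replicates 1, 2 or 3 (0.177, 0.0916 and 0.154) or NUP98-NSD1+NRASG12D replicates 1 or 2 (0.0617 and 0.0720). The median of all tested genes was shifted by 0.27 and 0.23 in these comparisons, and Max stood 0.15 and 0.27 above that shift. The combined and the NUP98-NSD1 cells differed by 0.08 (95% interval -0.31 to 0.48).

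Among the repressors, Mxd1 and Mxi1 were highest and Mxd4 was lowest in NUP98-NSD1+NRASG12D cells, while Mxd3 and Mnt passed no test. Mxd1 (ENSMUSG00000001156.9, chromosome 6, 86647042 to 86669161, minus strand) had 14.9, 18.2 and 13.6 FPKM in NRASG12D, 20.4, 16.1 and 20.0 in NUP98-NSD1, and 23.3, 44.0 and 115.9 in NUP98-NSD1+NRASG12D. The combined libraries were all above the other 6, by a small margin in replicate 1 and a wide one in replicate 3. The log2 fold change against NRASG12D was 1.62 ± 0.52 (limma, adjusted p = 0.0463), and against NUP98-NSD1 it was 1.36 ± 0.52 (adjusted p = 0.168). The call against NRASG12D was lost under both rescalings, with adjusted p = 0.0980 and 0.0896, without a filter on low values (0.182), and in 5 of 6 fits without a library. Without NUP98-NSD1+NRASG12D replicate 3 the value fell to 1.01 (adjusted p = 0.0505), and without replicate 2 adjusted p was 0.0747. Leaving out NRASG12D replicates 1, 2 or 3 gave adjusted p of 0.117, 0.0928 and 0.134. Against NUP98-NSD1, Mxd1 passed the threshold only without NUP98-NSD1+NRASG12D replicate 1 among the fits without a library (1.88, adjusted p = 0.0314), and without replicate 3 the value was 0.75 (adjusted p = 0.243).

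Mxi1, which encodes another MAX-binding repressor, rose in both comparisons with NRASG12D, as Max did. Mxi1 (ENSMUSG00000025025.14, chromosome 19, 53310518 to 53375810, plus strand) had 0.396, 0.963 and 0.480 FPKM in NRASG12D, 2.81, 2.39 and 1.25 in NUP98-NSD1, and 4.85, 5.83 and 16.6 in NUP98-NSD1+NRASG12D. The 3 groups did not overlap, in that order. The log2 fold change against NRASG12D was 0.95 ± 0.24 for NUP98-NSD1 (limma, adjusted p = 0.0138) and 2.48 ± 0.42 for NUP98-NSD1+NRASG12D (adjusted p = 0.00427). The second call held in 7 of 7 alternatives and in 6 of 6 fits without a library. The first held in 4 of 7 and 4 of 6, and was lost without NRASG12D replicate 3 (adjusted p = 0.0513) or NUP98-NSD1 replicate 2 (adjusted p = 0.0526) and under quantile normalization (0.48, adjusted p = 0.107). The difference between the combined and the NUP98-NSD1 cells was 1.53 ± 0.44 (adjusted p = 0.0809), and it passed only without NUP98-NSD1+NRASG12D replicate 1 among the fits without a library (1.84, adjusted p = 0.0444). On the opposite strand Mxi1 overlaps Gm10197 and AC133451.2, and 2.13% of its stretches of 50 bases occur in transcripts of other genes.

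Mxd4, a MAX-binding repressor of the same family, had the opposite direction to Mxd1 and Mxi1 in the combined cultures. Mxd4 (ENSMUSG00000037235.13, chromosome 5, 34173883 to 34187720, minus strand) had 10.4, 21.96 and 23.8 FPKM in NRASG12D, 11.7, 12.9 and 15.5 in NUP98-NSD1, and 7.09, 5.60 and 2.40 in NUP98-NSD1+NRASG12D. The combined libraries lay below the other 6, and NRASG12D replicate 1 lay below all NUP98-NSD1 libraries. Mxd4 fell in NUP98-NSD1+NRASG12D compared with NRASG12D by 1.72 on the log2 scale, with an SE of 0.42 (limma, adjusted p = 0.0177). The call held in 6 of 7 alternatives and was lost without NRASG12D replicate 2 (adjusted p = 0.0654) or replicate 3 (adjusted p = 0.0704). Against NUP98-NSD1 the value was -1.33 ± 0.33 (adjusted p = 0.0546), and without NUP98-NSD1+NRASG12D replicate 1 it was -1.59 (adjusted p = 0.0256). NUP98-NSD1 differed from NRASG12D by -0.39 ± 0.29 (adjusted p = 0.295), which became -0.74 (adjusted p = 0.0118) without NRASG12D replicate 1. Of its stretches of 50 bases, 5.39% occur in transcripts of 129 other genes, and an antisense gene, Gm42846, overlaps it.

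Mxd3, which is known from dividing cells, and Mnt, the broadly expressed repressor, were called in no comparison. Mxd3 (ENSMUSG00000021485.14, chromosome 13, 55325168 to 55329823, minus strand) had 7.29, 9.11 and 5.04 FPKM in NRASG12D, 7.81, 8.32 and 10.03 in NUP98-NSD1, and 8.72, 4.63 and 6.49 in the combined cultures. Mnt (ENSMUSG00000000282.12, chromosome 11, 74830920 to 74845725, plus strand) had 6.14 to 6.81, 6.38 to 7.24 and 5.19 to 7.66 FPKM in the same order. The groups overlapped for both genes in all 3 comparisons. The 95% intervals for Mnt were -0.19 to 0.29, -0.47 to 0.38 and -0.54 to 0.34 on the log2 scale, in the order NUP98-NSD1 against NRASG12D, combined against NRASG12D and combined against NUP98-NSD1. For Mxd3 they were -0.19 to 0.75, -0.76 to 0.55 and -0.94 to 0.18.

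Counted together, 3 of 8 tested members rose and 0 fell in NUP98-NSD1 against NRASG12D, where 52.1% of all 13493 tested genes were called, 42.2% as higher and 9.98% as lower. The groups did not overlap for these 3 members, nor for 64.2% of all tested genes. In NUP98-NSD1+NRASG12D against NRASG12D, 3 members rose and 2 fell, beside 38.3% of all genes called, 24.2% higher and 14.1% lower. Those 5 did not overlap, as was the case for 58.6% of all genes. In the first comparison the members were called no more often than genes in general, and whether the second count differs from the background was not tested. In NUP98-NSD1+NRASG12D against NUP98-NSD1, limma called 0 of 8 members and 8.61% of all genes, 2.3% as higher and 6.31% as lower. In that comparison 4 of the 8 tested members did not overlap between groups, against 31.4% of all genes. An unadjusted limma p under 0.05 was reached by 4 members. The share of all genes at that level was not computed, so this count cannot be set against genes in general. The 3 comparisons share libraries, so their values stand side by side and are not independent.

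**Figure D2:**
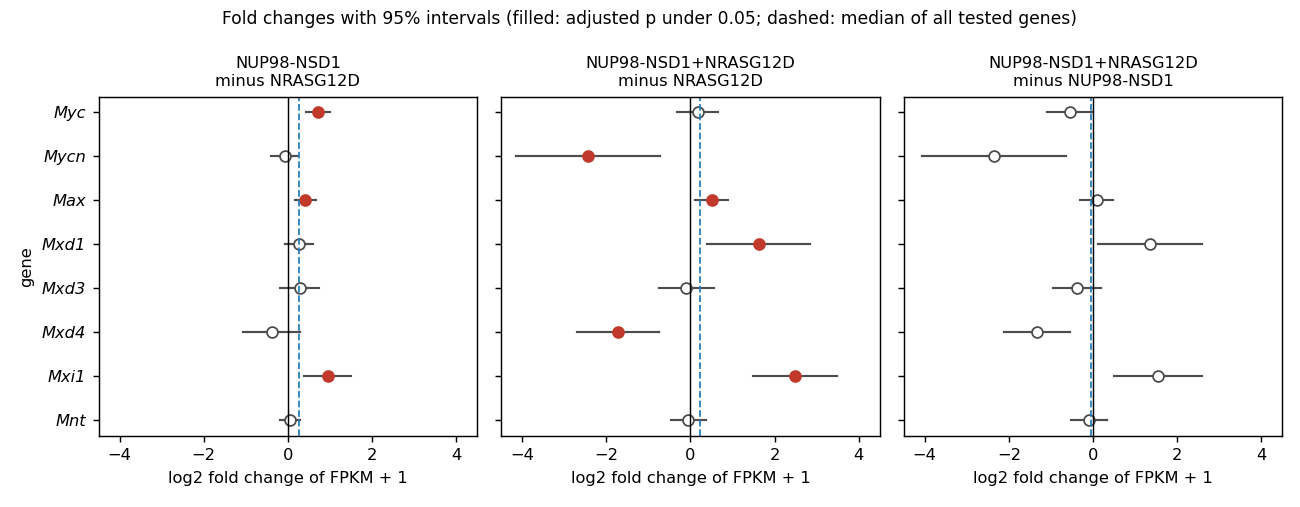
Log2 fold changes of the 8 tested members, with bars for the 95% interval, filled points for an adjusted p under 0.05 and a dashed line at the median of all tested genes. Mycn and Mxd4 lie to the left and Mxd1 and Mxi1 to the right in both comparisons of NUP98-NSD1+NRASG12D cells, and none is filled in the third panel.

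The balance of the network within a library was described by sums. Myc, Mycn and Mycl together had 187.8, 185.7 and 206.8 FPKM in NRASG12D, 323.8, 329.4 and 256.5 in NUP98-NSD1 and 249.2, 158.8 and 193 in NUP98-NSD1+NRASG12D. Mxd1, Mxd3, Mxd4, Mxi1 and Mnt together had 39.2, 56.3 and 49.65 FPKM, 49.1, 46.1 and 54.0 FPKM, and 49.2, 67.75 and 147.3 FPKM. The ratio of these sums was 4.79, 3.30 and 4.17 in NRASG12D, 6.60, 7.15 and 4.75 in NUP98-NSD1 and 5.06, 2.34 and 1.31 in NUP98-NSD1+NRASG12D. The lowest ratio in NUP98-NSD1 was above 2 of the 3 NRASG12D values, and the combined libraries spanned the widest range.

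The make-up of the repressor sum also differed. Mxd1 gave 37.9%, 32.2% and 27.3% of it in NRASG12D, 41.5%, 34.9% and 37% in NUP98-NSD1 and 47.45%, 65% and 78.7% in NUP98-NSD1+NRASG12D. The share of Mxd4 was 26.6%, 39.0% and 47.9%, then 23.9%, 27.98% and 28.7%, then 14.4%, 8.27% and 1.63%. In both shares the combined libraries did not overlap with the other 6. The ratio of Mxd1 to Mxd4 was 1.43, 0.827 and 0.570 in NRASG12D, 1.74, 1.25 and 1.29 in NUP98-NSD1, and 3.29, 7.86 and 48.3 in the combined cultures.

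**Figure D3:**
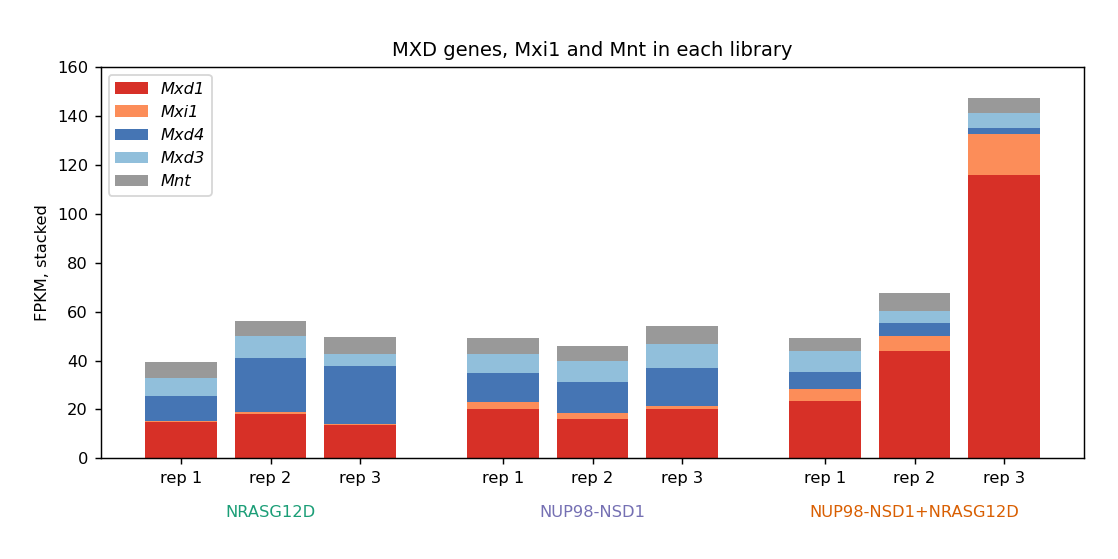
FPKM of Mxd1, Mxi1, Mxd4, Mxd3 and Mnt stacked for each library. The stack reaches 147.3 FPKM in NUP98-NSD1+NRASG12D replicate 3, of which Mxd1 is 78.7%, and 39.2 to 67.75 FPKM in the other 8 libraries.

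Cell type markers also differed between the groups. In NUP98-NSD1 against NRASG12D, the comparison in which Myc rose, 8 of 8 neutrophil precursor markers and 7 of 7 monocyte and macrophage markers rose, and of 10 mast cell markers 3 rose and 4 fell. Of all tested genes, 42.2% rose and 9.98% fell in that comparison. The 3 mast cell markers that rose were Hdc, Mcpt4 and Cpa3, and the rise of Cpa3 is from a listed 0 in all 3 NRASG12D libraries, which can be a failed estimate. In NUP98-NSD1+NRASG12D replicates 1, 2 and 3, Kit, the SCF receptor of progenitors and mast cells, had 36.0, 70.7 and 8.27 FPKM, against 382.1 to 560.9 in NUP98-NSD1 and 981.8 to 1119 in NRASG12D. S100a8, a calcium-binding protein of neutrophils and monocytes, had 1431, 2049 and 8629 FPKM in the same libraries and 264.6 to 410.1 in NUP98-NSD1. Of the neutrophil precursor markers, S100a9 with 527, 1091 and 4273 FPKM and Ly6c2 with 1345, 1384 and 3674 had the same order over these libraries. The other neutrophil precursor markers did not follow this order. Mpo, myeloperoxidase, had 5140, 1463 and 130.9 FPKM, Csf3r, the G-CSF receptor, 48.5, 32.3 and 12.7, and Elane, neutrophil elastase, 3767, 994.3 and 1945. Of the mast cell markers, 8 of 10 fell in the combined cultures in each comparison, but these were not the same 8. Tpsab1 passed only against NRASG12D (against NUP98-NSD1 -1.74, limma adjusted p = 0.226), and Cpa3 fell only against NUP98-NSD1. Cpa3, from its listed 0, and Hdc rose against NRASG12D, by 9.14 and 3.21. Of all tested genes, 14.1% fell against NRASG12D and 6.31% against NUP98-NSD1. Against NUP98-NSD1, 3 of 8 neutrophil precursor markers and 3 of 7 monocyte and macrophage markers rose, beside 2.3% of all tested genes. NUP98-NSD1+NRASG12D replicate 3, with the lowest Kit and the highest S100a8, also had the highest Nras of its group. The part of cell type and of Nras level in the values of the members was not tested.

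**Figure D4:**
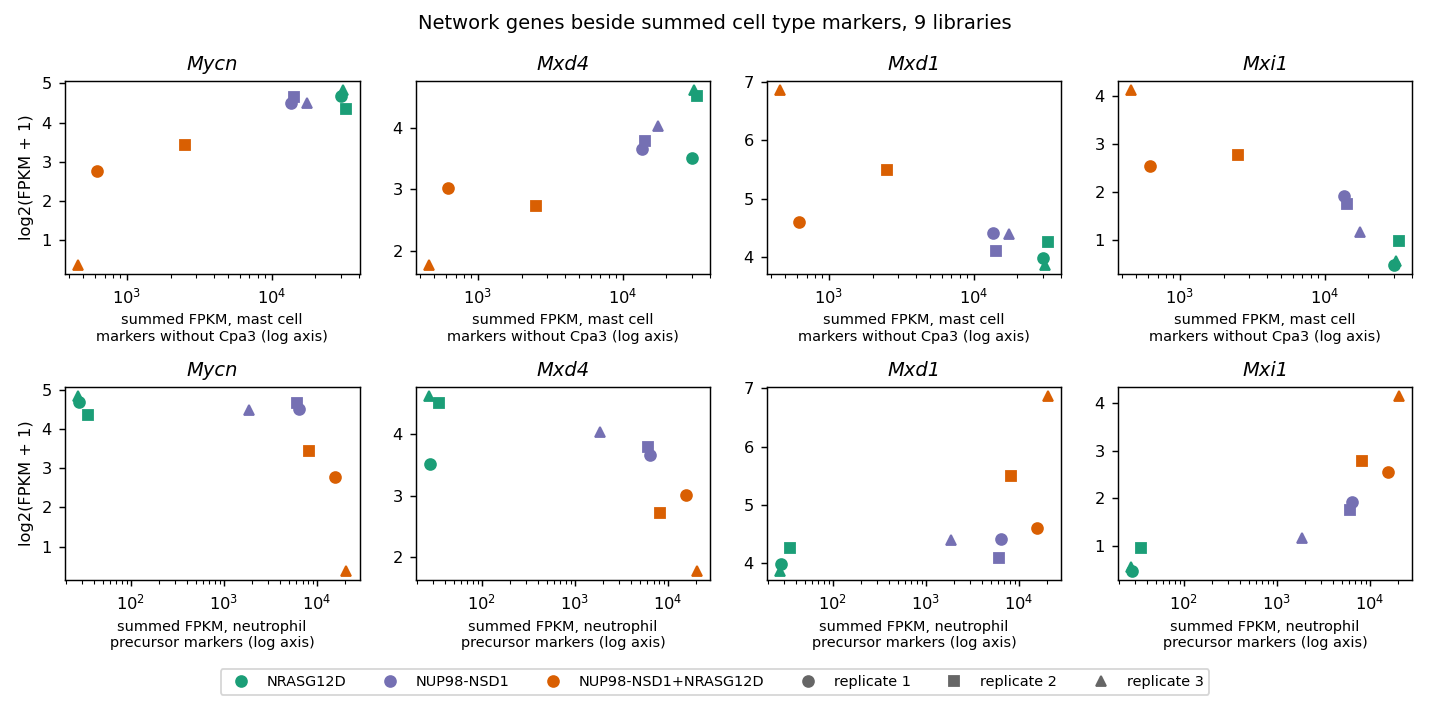
Log2(FPKM + 1) of Mycn, Mxd4, Mxd1 and Mxi1 against the summed FPKM of mast cell markers without Cpa3 (upper row) and of neutrophil precursor markers (lower row), on log x axes, with color for the group and symbol for the replicate. The 3 combined libraries, with mast sums of 459.4 to 2514 FPKM, lie apart from the other 6, with sums of 13672 FPKM or more.

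Genes whose profile over the 9 libraries was closest to that of Myc were Dcakd (Pearson r of log2 values 0.986), Slc35c2 (0.972), C030006K11Rik (0.969), Med25 (0.968) and Sdhaf1 (0.960). Closest to Mycn were Zfp579 (0.995), Angpt1 (0.988), Alkbh1 (0.983), Dtnbp1 (0.982) and Ak3 (0.982). Angpt1, which encodes the angiopoietin ligand of the TIE2 receptor, had 41.7 to 56.4 FPKM in the 6 single-gene libraries and 7.24, 10.9 and 0.637 in the combined ones. These correlations describe 9 libraries that fall into 3 groups with different cell type markers.

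Pvt1, a long noncoding RNA gene that starts 47611 bases past the end of Myc (chromosome 15, 62037986 to 62378096), had another pattern. It had 13.4, 10.3 and 12.2 FPKM in NRASG12D, 8.48, 11.4 and 9.75 in NUP98-NSD1 and 3.47, 6.04 and 2.84 in NUP98-NSD1+NRASG12D. Pvt1 fell in the combined cultures against NRASG12D (-1.38 ± 0.25, limma, adjusted p = 0.00608) and against NUP98-NSD1 (-1.13 ± 0.26, adjusted p = 0.045), and all 3 combined libraries lay below the other 6. Bmyc, a MYC relative without the DNA-binding region, had 4.80, 3.63 and 7.04 FPKM in NRASG12D, 30.7, 31.6 and 21.2 in NUP98-NSD1 and 37.7, 11.8 and 5.45 in the combined cultures. It rose in NUP98-NSD1 against NRASG12D (2.24 ± 0.23, adjusted p = 0.000853), and against NRASG12D the combined cultures gave 1.29 ± 0.61 (adjusted p = 0.132).

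Genes that MYC is known to induce, a list of ribosome production, nucleotide and growth genes, were higher in NUP98-NSD1 cells. Of 44 tested genes, 43 rose and 1 fell against NRASG12D, where 42.2% of all tested genes rose and 9.98% fell. The median log2 fold change was 0.77 beside 0.27 for all tested genes. The count of higher genes among the 44 was 38 to 42 without 1 library, 31 under median-ratio scaling, 33 under quantile normalization and 24 with all 9 libraries in 1 fit. Under median-ratio scaling, quantile normalization and 1 fit, 3059, 2619 and 2604 of all 13493 tested genes were higher, and without 1 library 3898 to 6342 were. Cdca7, a cell division gene, had 10.8, 12.6 and 9.15 FPKM in NRASG12D and 51.8, 55.7 and 36.5 in NUP98-NSD1 (log2 fold change 2.04 ± 0.18). Tfrc, the transferrin receptor, Apex1, a DNA repair enzyme, and Slc19a1, the folate carrier, rose by 1.73, 1.59 and 1.46. The 1 gene that fell was Ccnd2, a D-type cyclin, from 1020, 1178 and 1404 FPKM in NRASG12D to 384 to 534 in NUP98-NSD1.

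In NUP98-NSD1+NRASG12D against NRASG12D, 18 of the 44 rose and 1, Ccnd2, fell, where 24.2% of all tested genes rose and 14.1% fell. The median was 0.64 beside 0.23 for all genes, and the count of higher genes among the 44 was 4 without a filter on low values. It was 6, 5 and 5 without NRASG12D replicates 1, 2 and 3 and 28 without NUP98-NSD1+NRASG12D replicate 2. Beside these counts, 1827, 1933, 1727 and 4202 of all 13493 tested genes were higher in the same fits. Without a filter 1911 of 41853 genes were higher. Ccnd2 had 233.9, 265.9 and 124.8 FPKM in the combined cultures (log2 fold change -2.58 ± 0.31). Against NUP98-NSD1, limma called 0 of 44 beside 8.61% of all tested genes, 1 of the 44 had an unadjusted p under 0.05, and the median was -0.06. Of 10 proliferation genes, 9, 7 and 0 were higher in the 3 comparisons, with 0 at an unadjusted p under 0.05 in the last, where 42.2%, 24.2% and 2.3% of all tested genes were higher. The count of 7 became 2 without a filter on low values and 2 to 8 without 1 library. Of 5 genes that MYC is known to repress, Gadd45a, a stress response gene, rose in both comparisons with NRASG12D (0.73 and 1.00). Cdkn2b, a CDK inhibitor, fell in NUP98-NSD1 by 0.49, and Ndrg1, a differentiation gene, rose in the combined cultures against NRASG12D (1.51) and against NUP98-NSD1 (1.23).

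Partners of the network moved in part. Of 11 coactivators, 6 rose and 1 fell in NUP98-NSD1 against NRASG12D, and 3 rose in the combined cultures. Of all tested genes, 42.2% rose and 9.98% fell in the first of these comparisons and 24.2% and 14.1% in the second. Under median-ratio scaling and under quantile normalization, 3 coactivators were higher and 2 lower in NUP98-NSD1, with medians of 0.014 and 0.013, and 1 was higher in the combined cultures. Ruvbl2, an ATPase that binds MYC, had 46.5, 41.7 and 39.8 FPKM in NRASG12D, 137.5, 141.1 and 86.0 in NUP98-NSD1, and 254.8, 95.7 and 126.5 in the combined cultures. Kat2a, the acetyltransferase GCN5, rose by 0.86 and 0.76. Ruvbl1, the partner of Ruvbl2, and Kat5, the acetyltransferase TIP60, rose in NUP98-NSD1, by 0.78 and 0.44, and Ccnt1, a subunit of P-TEFb, rose in the combined cultures, by 0.46. Of 6 corepressors, 4 rose in NUP98-NSD1, and 2 rose and 1 fell in the combined cultures. The NUP98-NSD1 count became 3 higher and 2 lower under each rescaling and 2 higher with all 9 libraries in 1 fit. Sap30, a SIN3 subunit, rose by 1.37 and 1.91, and the histone deacetylase gene Hdac1 by 0.69 and 0.96. Hdac2, of the same family, and Sin3a, a scaffold protein, rose in NUP98-NSD1, by 1.02 and 0.40, and Sin3b fell in the combined cultures, by 0.56. Of 6 genes of MYC protein turnover, 3 rose and 1 fell in NUP98-NSD1 and 2 rose and 1 fell in the combined cultures. The NUP98-NSD1 count was 2 higher and 1 lower under each rescaling, and the combined count was 1 higher and 0 lower without a filter on low values. Aurka, a kinase that stabilizes MYCN, rose by 1.23 and 1.66. Skp2, a subunit of a ubiquitin ligase that binds MYC, had 4.20, 4.99 and 3.94 FPKM in NRASG12D and 12.1, 12.4 and 9.91 in NUP98-NSD1, a rise of 1.21 ± 0.13. Fbxw7, a ubiquitin ligase that marks MYC for degradation, fell by 0.42 and 0.79. In these 3 lists, limma called 0 genes between the combined and the NUP98-NSD1 cells, with 0, 1 and 0 genes at an unadjusted p under 0.05.

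The MLX branch, in which MLX pairs with glucose-sensing partners and shares MNT and some MXD proteins with MAX, included the largest change of these lists. Arrdc4, an arrestin-like gene that these factors induce, had 0.0953, 0.252 and 0.350 FPKM in NRASG12D, 7.53, 5.50 and 3.94 in NUP98-NSD1 and 15.3, 19.9 and 33.0 in NUP98-NSD1+NRASG12D. The 3 groups did not overlap, and all 3 differences passed (2.40, 4.21 and 1.80, with limma adjusted p = 0.000484, 0.000133 and 0.0224). Mlx rose by 0.68 in NUP98-NSD1 and 1.42 in the combined cultures against NRASG12D. Of the 5 genes tested in this branch, the number called higher in NUP98-NSD1 against NRASG12D was 2, where 42.2% of all tested genes were higher. It was 1 under median-ratio scaling, with all 9 libraries in 1 fit and without a filter on low values. All genes called higher in these settings numbered 3059 of 13493, 2604 of 13493 and 3857 of 41853. Txnip, also a target of this branch, fell in NUP98-NSD1 against NRASG12D, by 0.47.

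**Figure D5:**
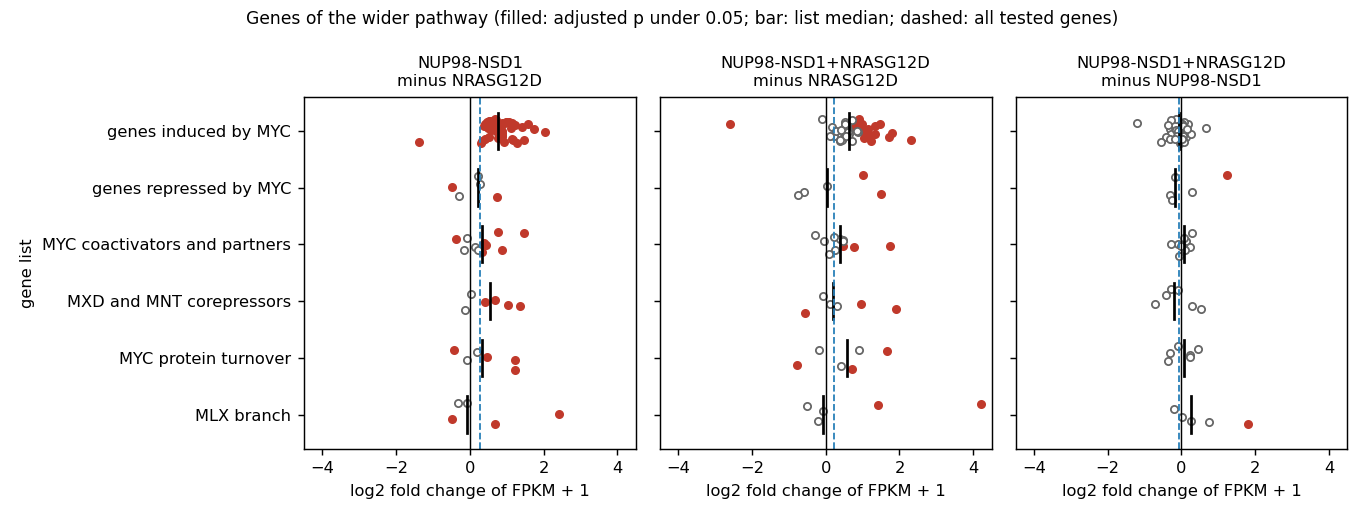
Log2 fold changes of the genes of 6 lists in the 3 comparisons, with filled points for an adjusted p under 0.05, a black bar for the list median and a dashed line for the median of all tested genes. Of the genes induced by MYC, 43 of 44 are filled to the right in the first panel and none is filled in the third.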

How the data were processed

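RNA was sequenced from 9 libraries, 3 per group, and groups were taken from the sample labels. The authors deposited FPKM that Cufflinks computed per gene. The submitters' processing notes name STAR 2.7.2a, Cufflinks 2.2.1 and GRCm38.p6, and the methods name GENCODE M22. Coordinates and transcripts were read here from GENCODE M21. Strand-specific counting is not given in the sources used here. DESeq2 on counts, named in the methods, was not run on FPKM.

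Each pair of groups was compared with limma 3.58.1 on log2(FPKM + 1), over the 13493 genes that reached 1 FPKM in 3 or more of the 9 libraries. P-values were adjusted across these genes (Benjamini-Hochberg), with a threshold of 0.05. Such fold changes understate changes of low genes. On simulated data for NUP98-NSD1 versus NRASG12D, 200 of 13493 genes were changed, and 64.6% of changes of 1 and 91.1% of changes of 2 (log2) were found. In the data 7036 genes were called in that comparison, and the combined cultures were not simulated. These shares therefore do not give the power of the tests above. Exact permutation tests were two-sided, with a smallest p of 0.1. Depth was estimated from the steps between low FPKM, of which 83.3% to 86.0% were whole within 0.1 fragment. The floor of 3 fragments covers counting error only. Members and lists were chosen with earlier results of these data known. Named genes are the members, up to 4 genes per list and comparison with the largest change among those called, the 5 genes closest to Myc and to Mycn, and Nras, Nup98 and Nsd1. From the marker lists, Kit, S100a8, S100a9, Ly6c2, Mpo, Csf3r, Elane, Hdc, Mcpt4, Tpsab1 and Cpa3 were added after their values were seen. The proliferation list is given by its counts. As alternatives, a pseudocount of 0.1, no filter, median-ratio scaling, quantile normalization, 1 fit of all libraries, array weights, a replicate block and leaving out each library in turn were run.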

Additional observations from a re-analysis of the deposited data

How the results depend on the processing

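The count of members past the threshold depended on the processing. For NUP98-NSD1 against NRASG12D it was 3, and it was 1 without a filter, under quantile normalization and with all 9 libraries in 1 fit, and 1 to 3 without 1 library. For NUP98-NSD1+NRASG12D against NRASG12D it was 5, and it was 1 without a filter, 3 under each rescaling and 1 to 4 without 1 library. For NUP98-NSD1+NRASG12D against NUP98-NSD1 it was 0, and it was 3 with all 9 libraries in 1 fit, 5 with array weights and 0 to 3 without 1 library. With a replicate block the counts were 3, 4 and 0. Deviations of same-numbered libraries from their group means had correlations of -0.177 to 0.16. These values show no shared deviation, but they cannot tell whether same-numbered libraries had a common origin. Directions turned only in values that were not called. Median-ratio scaling and quantile normalization gave -0.0539 and -0.0522 for Mxd1, -0.0164 and -0.0513 for Mxd3 and -0.242 and -0.282 for Mnt in NUP98-NSD1 against NRASG12D, and -0.0629 and -0.177 for Myc in NUP98-NSD1+NRASG12D against NRASG12D. Array weights gave -0.106 for Max in NUP98-NSD1+NRASG12D against NUP98-NSD1. Without 1 library, Mycn ran from -0.209 to 0.0345 and Mnt from -0.00301 to 0.0887 in NUP98-NSD1 against NRASG12D, Mxd3 from -0.302 to 0.0988 and Mnt from -0.185 to 0.0568 in NUP98-NSD1+NRASG12D against NRASG12D, and Mnt from -0.235 to 0.00688 in NUP98-NSD1+NRASG12D against NUP98-NSD1. Over all genes, 7036, 5173 and 1162 were called. The first became 3065 with all 9 libraries in 1 fit, the second 2941 to 6327 without 1 library, and the third 169 without a filter, 2251 with all 9 libraries, 3500 with array weights and 283 to 2509 without 1 library. Of called genes 80.9%, 63.1% and 26.8% were higher, against 49.3%, 50.9% and 32.6% under median-ratio scaling and 43.2%, 41.3% and 36.7% under quantile normalization. The causes were not tested. FPKM limit what can be said of Mycl and of Mxi1 in NRASG12D cells, which lie near the low end of the scale.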
